A study of Mus musculus with 36 samples.

Results

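The transcripts described here are those of 9 genes through which the circadian clock of the liver acts on other genes: Dbp, Tef, Hlf, Nfil3, Rora, Bhlhe40, Bhlhe41, Ciart and Usp2. They were chosen by gene symbol from a table of 38283 genes, and all 9 were among the 13945 genes with enough counts to be tested. Ciart is listed there under its older symbol Gm129 and was matched by its identifier. Liver RNA came from 36 male mice aged 16 weeks on a C57Bl/6J background and chow, 6 in each of 6 groups. Wild-type mice and WT/Y657* mice, which carry a knock-in nonsense codon at Y657 of Pik3r1 on 1 allele in every tissue, were studied fed, after a 16 h fast, and after a 16 h fast followed by 6 h of refeeding. Pik3r1 encodes the p85α regulatory subunit of phosphoinositide 3-kinase, and its truncated form impairs insulin signalling. Mice are named here as in the labels, with WT_ for wild-type or MT_ for WT/Y657* before the mouse number, and these numbers fall into 3 series. The fasted and the refed groups of each genotype hold 3 mice from a lower series (MT_806 to WT_828) and 3 from a higher series (WT_896 to MT_923), while every fed mouse comes from a middle series (WT_847 to MT_869). Comparisons of fed mice with others are therefore also comparisons between number series. In the higher series the refed mice (WT_896 to WT_901) and the fasted mice (WT_918 to MT_923) form separate runs of numbers. Comparisons of refed with fasted mice of that series are thus also comparisons between these runs. In the lower series the numbers of fasted and refed mice are interleaved. The hour at which livers were taken is not given in the sources used here, and fed livers were collected before the overnight fast began, so feeding state and time of day cannot be told apart.

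The clock turns on a feedback loop in which CLOCK and BMAL1 (Arntl) activate genes through E-box sequences and the PER and CRY proteins, once made, shut that activation off. A second loop uses ROR activators and REV-ERB repressors (Nr1d1, Nr1d2) at a sequence called the RORE. Time is passed on to metabolic genes by output factors. Dbp, Tef and Hlf are PAR bZIP activators that bind the D-box, a site in many genes of drug, bile acid and lipid metabolism, and Nfil3 (E4bp4) is a repressor that binds the same site at the opposite time of day. Rora is an activator at the RORE. Bhlhe40 (Dec1) and Bhlhe41 (Dec2) repress through the E-box, and Bhlhe40 also responds to insulin and nutrients. Ciart (Chrono) is a repressor of CLOCK and BMAL1. Usp2 is not a transcription factor but a deubiquitinase whose transcript is strongly rhythmic. In mouse liver, feeding time is a strong setter of these rhythms.

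Clock elements at the starts of the members are shown first, since E-boxes and ROREs are elements through which the core clock is known to act. The sequences are taken from RefSeq windows on GRCm38.p6 that run from 250 bases before to 50 bases after a transcript start, which were found for 8 members. Shares of all windows are over the 32851 full-length windows searched, which do not cover every chromosome. Both strands were searched for the E-box (CACGTG), the related CACGTT, the D-box (TTATGTAA or TTACGTAA) and the RORE (TAGGTCA). The matched bases are in capitals and each sequence is written 5′ to 3′ on the strand of the gene.
Ciart, chr3:95882252-95882374, minus strand: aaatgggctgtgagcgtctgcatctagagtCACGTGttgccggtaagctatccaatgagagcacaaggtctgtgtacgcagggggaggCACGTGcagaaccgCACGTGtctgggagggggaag
Tef, window of the downstream start, chr15:81811246-81811313, plus strand: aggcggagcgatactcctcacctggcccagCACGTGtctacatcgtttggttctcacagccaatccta
Tef, window of the upstream start, chr15:81802535-81802562, plus strand: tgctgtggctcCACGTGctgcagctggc
Bhlhe41, chr6:145865557-145865603, minus strand: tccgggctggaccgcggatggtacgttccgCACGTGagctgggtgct
Nfil3, chr13:52981040-52981062, minus strand: gcgctcggaacTGACCTActaac

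Ciart held 3 E-boxes, which begin 116, 58 and 44 bases before the start, and only 29 of all windows (0.0883%) held at least 3. Tef held 1 E-box in each of its 2 windows and Bhlhe41 held 1, beginning 153 bases before the start, against 7.15% of all windows with an E-box. Nfil3 held a RORE, printed as its reverse complement, beginning 12 bases before the start, against 2.61% of windows. No match to these letters lay in the windows of Dbp, Hlf, Rora and Usp2. CACGTT (4.68% of windows) and the D-box (1.06%) matched no member that had a window. Bhlhe40 had no window and was not searched. The stretch of Nfil3 and the upstream stretch of Tef lie within annotated exons, while those of Ciart and of the downstream Tef start lie outside exons. Such a match is a description of these letters and not of binding.

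In the GENCODE M21 annotation of GRCm38, Dbp lies at chr7:45705088-45710203 on the plus strand, Tef at chr15:81802421-81826863 on the plus strand and Hlf at chr11:90336536-90390895 on the minus strand. Nfil3 lies at chr13:52967209-52981073 on the minus strand and Rora at chr9:68653786-69388246 on the plus strand. Bhlhe40 lies at chr6:108660629-108666925 on the plus strand and Bhlhe41 at chr6:145858243-145865558 on the minus strand. Ciart lies at chr3:95878503-95882251 on the minus strand and Usp2 at chr9:44067021-44095627 on the plus strand. Dbp overlaps Sphk2, Tef overlaps AC158970.1, Rora overlaps Gm15511, Bhlhe40 overlaps 0610040F04Rik and Ciart overlaps C920021L13Rik. The library kit keeps strand but the counting is not stated to use it, so reads in these overlaps are uncertain.

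Total estimated counts per mouse ranged from 8839481 to 19542778, and levels are given as CPM, the count scaled to library size with TMM factors. Per kilobase of exon, the mean level in fed wild-type liver was highest for Bhlhe40 (34.7 CPM per kb), followed by Tef (20.3), Dbp (11.5), Rora (10.02), Nfil3 (8.30), Hlf (4.79), Ciart (2.58), Usp2 (2.56) and Bhlhe41 (0.535). Bhlhe41 had 0 to 68 counts per library, so its values carry a large counting error. The targeted gene Pik3r1 was at 135 ± 14.1 CPM (SD, n = 6) in fed wild-type and 139 ± 25.4 (n = 6) in fed WT/Y657* mice, values that sum both alleles and do not test the labels. The 8 hepatocyte markers summed to between 49881 and 92900 CPM, with none at 0 in any group. Fewer cells of a type and less RNA per cell cannot be told apart in whole liver.

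**Figure D1:**
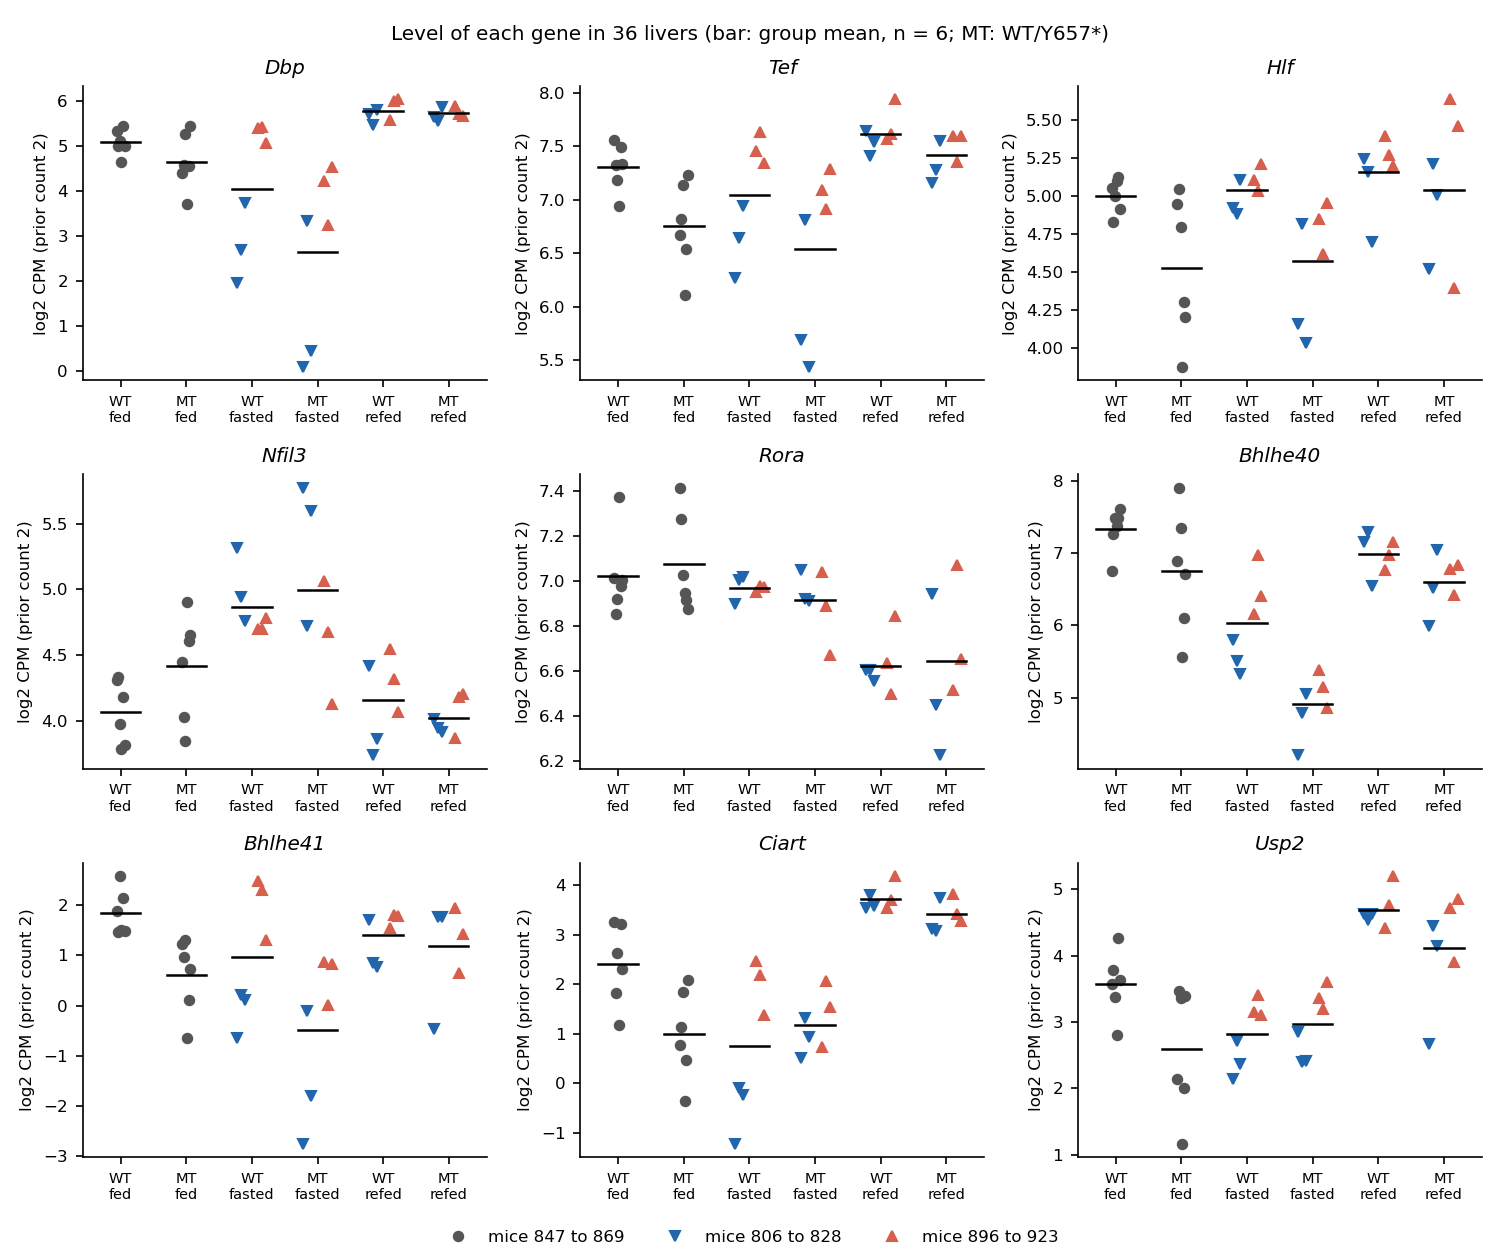
CPM of each of the 9 genes in each of the 36 mice, as log2 CPM with a prior count of 2, with a panel per gene and a bar at each group mean, by genotype and feeding state, with the number series shown by the symbol. Dbp lay between 44.2 and 65.2 CPM in every refed mouse and between 0.907 and 42.5 CPM in the fasted mice.

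The refed state against the fasted state asked how the output genes differ when food returns. Ciart, Usp2 and Bhlhe40 were higher and the D-box repressor Nfil3 lower in refed livers of both genotypes. In addition, the activators Dbp, Tef and Hlf and the repressor Bhlhe41 were higher in WT/Y657* mice, and Rora was lower in wild-type mice. The members called in WT/Y657* mice were 8 of 9, 7 higher and 1 lower, beside 31.3% of all genes tested (17.1% higher and 14.2% lower). The members called in wild-type mice were 5 of 9, 3 higher and 2 lower, beside 30.2% of all genes (16.5% higher and 13.7% lower). The median log2 fold change of the 9 members was 1.23 in WT/Y657* and 0.51 in wild-type mice, against medians over all genes of -0.0080 and 0.0018. All tests are edgeR's quasi-likelihood test, two-sided, with Benjamini-Hochberg adjustment over all genes, every later adjusted p is from it unless another tool is named, and standard errors (SE) are those of the log2 fold change.

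Among the D-box activators, Dbp in fasted WT/Y657* mice was at 0.907 CPM in the lowest, 9.60 at the median and 22.98 in the highest mouse. In refed WT/Y657* mice it was at 46.9, 51.4 and 59.3 CPM. Every refed mouse was above every fasted mouse, and Dbp rose by 2.34 on the log2 scale (SE 0.51, adjusted p = 0.000608), or 5.08-fold. In wild-type mice Dbp went from 3.72, 23.1 and 42.5 CPM in the fasted to 44.2, 53.8 and 65.2 in the refed group, again without overlap, at a log2 difference of 1.22 (SE 0.48, adjusted p = 0.0514) that was not called. Tef in WT/Y657* mice was at 43.1, 116 and 156 CPM fasted and at 142, 175 and 193 refed, with 4 of 6 refed mice above all fasted ones. Its log2 fold change was 0.74 (SE 0.24, adjusted p = 0.0183), and without fasted mouse MT_806 the adjusted p was 0.0543. The wild-type difference of Tef was 0.51 (SE 0.24, adjusted p = 0.113). Hlf in WT/Y657* mice was at 16.2, 26.2 and 30.9 CPM fasted and at 20.9, 34.5 and 49.7 refed, and its log2 change of 0.50 (SE 0.19, adjusted p = 0.0429) was lost when any of 7 mice was left out, with an adjusted p of up to 0.144. Wild-type Hlf differed by 0.13 on the log2 scale (adjusted p = 0.636).

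Some cell type markers were also called in this comparison, and their part in it was not tested. Beside them, 30.2% of all genes were called in wild-type mice (13.7% lower) and 31.3% in WT/Y657* mice (14.2% lower). On refeeding, endothelial markers were lower for 2 of 5 in wild-type mice and 3 of 5 in those with WT/Y657*. Stellate cell markers were lower for 3 and 2 of 5, with 1 higher in each genotype, and hepatocyte markers were lower for 2 of 8 in each. No Kupffer, bile duct or lymphocyte marker was called.

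Nfil3, the repressor at the D-box, was at 25.9, 27.2 and 39.6 CPM in fasted wild-type mice (lowest, median and highest) and at 13.2, 18.2 and 23.3 in refed ones. The groups did not overlap, and Nfil3 fell by 0.69 on the log2 scale (SE 0.20, adjusted p = 0.00868). Nfil3 in WT/Y657* mice was at 17.4, 29.8 and 54.6 CPM fasted and at 14.4, 15.7 and 18.3 refed. There 4 of 6 refed mice lay below all fasted mice, and it fell by 1.08 (SE 0.20, adjusted p = 9.87e-05). The log2 difference between Dbp and Nfil3 CPM within a mouse was 1.60 ± 0.38 (SD, n = 6) in refed and -0.83 ± 1.70 in fasted wild-type mice, and 1.70 ± 0.23 in refed and -2.36 ± 2.48 in fasted WT/Y657* mice. The fasted means hide a split by series. Fasted wild-type mice lay at -3.36 to -1.03 in the lower and 0.26 to 0.71 in the higher series. Fasted WT/Y657* mice lay at -5.70 to -1.40 and -1.44 to 0.40. In fed mice it was 1.02 ± 0.23 for wild-type and 0.23 ± 0.89 for WT/Y657*.

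The clock repressor Ciart and the deubiquitinase Usp2 had the largest folds in wild-type mice. Ciart was at 0.281, 1.62 and 5.36 CPM in fasted and 11.5, 12.2 and 17.9 in refed wild-type mice. All refed mice exceeded all fasted mice, a 5.61-fold rise (log2 2.49, SE 0.44, adjusted p = 4.62e-05). Ciart in WT/Y657* mice was at 1.28, 2.04 and 4.02 CPM fasted and 8.29, 9.99 and 13.9 refed. It rose 4.69-fold there (log2 2.23, SE 0.44, adjusted p = 0.000187), also without overlap. Usp2 in wild-type mice was at 4.28, 7.45 and 10.5 CPM fasted and 21.3, 24.5 and 36.6 refed. It rose 3.6-fold without overlap (log2 1.85, SE 0.34, adjusted p = 8.55e-05). Of the WT/Y657* mice, 5 of 6 refed livers exceeded every fasted one, and the rise was 2.35-fold (log2 1.23, SE 0.33, adjusted p = 0.00497).

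Both E-box repressors were higher on refeeding in WT/Y657* mice, and Bhlhe40 also in wild-type mice. Bhlhe40 in WT/Y657* mice was at 18.3, 30.9 and 41.7 CPM fasted and 63.2, 101 and 131 refed. No refed mouse overlapped a fasted one, and it rose 3.22-fold (log2 1.69, SE 0.30, adjusted p = 5.58e-05). In wild-type mice it was at 40.0, 63.4 and 126 CPM fasted and 93.4, 134 and 157 refed, with a log2 change of 0.86 (SE 0.29, adjusted p = 0.0227) that was lost when fasted mouse WT_807, WT_824 or WT_825 or refed mouse WT_816 was left out (adjusted p up to 0.0608). Bhlhe41 in WT/Y657* mice was at 0, 0.816 and 1.67 CPM fasted and 0.578, 2.88 and 3.70 refed. Its log2 change of 1.54 (SE 0.56, adjusted p = 0.0337) was lost when any of 7 mice was left out, with an adjusted p of up to 0.0811. The library at 0 allows a level of up to 0.227 CPM (3 counts, counting error only). In wild-type mice Bhlhe41 differed by 0.09 (SE 0.49, adjusted p = 0.919). Rora, the activator at the RORE, moved the other way: it was at 119, 126 and 129 CPM in fasted and 90.4, 97.2 and 115 in refed wild-type mice. The groups did not overlap, and it fell by 0.34 (SE 0.11, adjusted p = 0.0117), and the WT/Y657* difference was -0.25 (SE 0.11, adjusted p = 0.0703). No member's response to refeeding was called as different between genotypes, where 2.06% of all genes were. None of the 9 had an unadjusted p under 0.05 for that difference, against 15.5% of all genes, and edgeR's likelihood ratio test and DESeq2 also called 0. The largest differences on the log2 scale were 1.45 for Bhlhe41 (adjusted p = 0.35) and 1.12 for Dbp (adjusted p = 0.46).

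**Figure D2:**
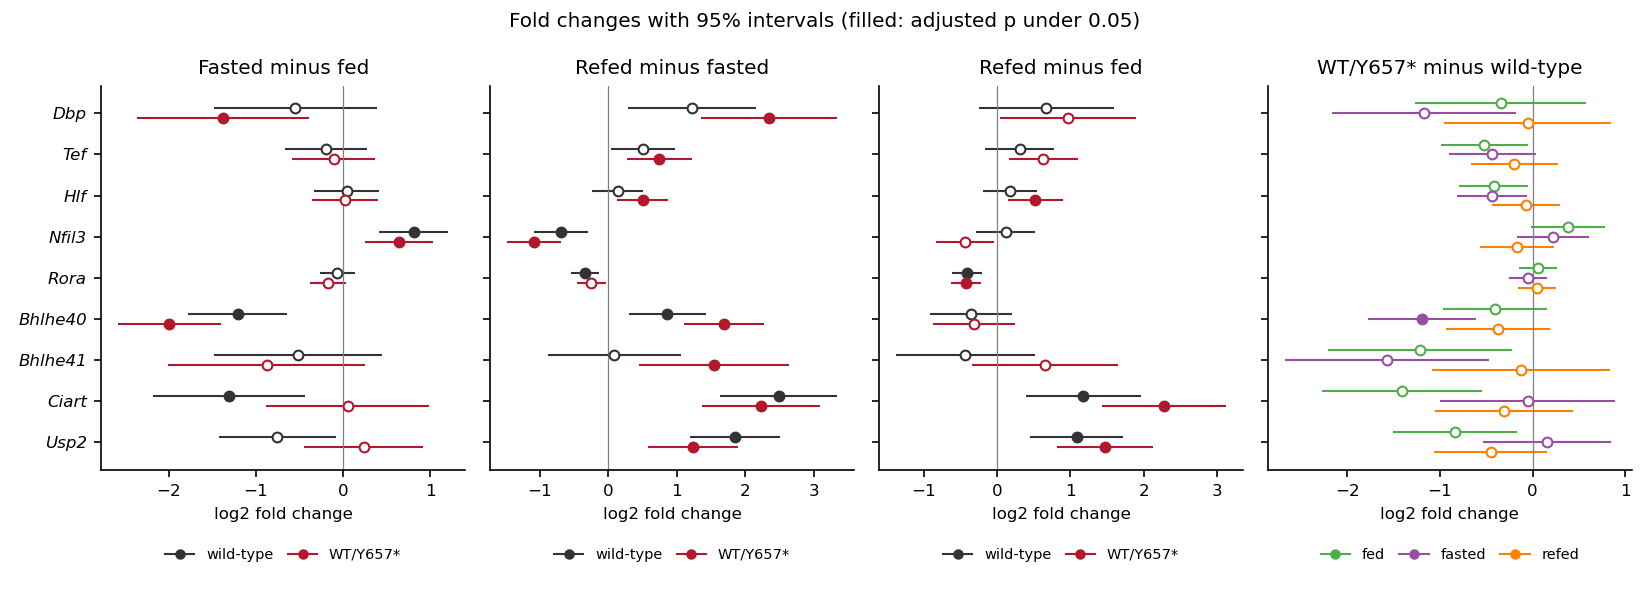
Log2 fold change of each gene with its 95% interval for fasted against fed, refed against fasted, refed against fed and WT/Y657* against wild-type mice, with filled symbols for calls at an adjusted p under 0.05. Ciart on refeeding stood at 2.49 in wild-type mice and 2.23 in those with WT/Y657*, while Nfil3 stood at -0.69 and -1.08.

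Fasted against fed mice asked what the 16 h fast was accompanied by. Nfil3 was higher and Bhlhe40 lower in fasted mice of both genotypes. Ciart was also lower in wild-type and Dbp in WT/Y657* mice, so that 3 of 9 members were called in each genotype, 1 higher and 2 lower, beside 32% of all genes (14.5% higher and 17.5% lower) in wild-type and 32.9% (15.2% higher and 17.7% lower) in WT/Y657* mice. These shares are close to the background. Of the cell type markers, fasting wild-type mice had 3 of 5 endothelial and 1 each of 5 stellate and 4 lymphocyte markers higher, 1 of 5 bile duct markers lower, and 1 of 8 hepatocyte markers higher and 1 lower. Fasting WT/Y657* mice had 2 of 8 hepatocyte markers higher, 1 of 5 stellate markers higher and 1 lower, and 1 of 5 bile duct markers lower. The part of these cells was not tested. The fasted mice are the same as in the refeeding comparison, so the 2 sets of values are not independent.

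Nfil3 was at 13.6, 16.8 and 19.99 CPM in fed wild-type mice, below every fasted wild-type value given above. It rose by 0.81 on the log2 scale (SE 0.20, adjusted p = 0.0025). The WT/Y657* values went from 14.2, 22.9 and 29.8 CPM fed to the fasted values above, with a log2 change of 0.65 (SE 0.20, adjusted p = 0.0121). Without fasted mouse MT_806 the adjusted p was 0.0661. Bhlhe40 was at 107, 172 and 195 CPM in fed wild-type mice, and 5 of 6 fasted mice lay below all of them. It fell by 1.21 (SE 0.29, adjusted p = 0.00169). In fed WT/Y657* mice it varied from 46.9 to 239 CPM around a median of 111, and still no fasted mouse reached the lowest of these. Bhlhe40 fell by 1.997 on the log2 scale there (SE 0.30, adjusted p = 4.99e-06).

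Dbp was at 24.6, 33.1 and 43.5 CPM in fed wild-type and 12.9, 23.4 and 42.9 in fed WT/Y657* mice. The WT/Y657* level fell by 1.38 on fasting (SE 0.50, adjusted p = 0.0352), a call lost without any of 6 mice (fed MT_859 and MT_869, fasted MT_806, MT_826, MT_827 and MT_922, adjusted p up to 0.0803). In wild-type mice the difference was -0.55 (SE 0.48, adjusted p = 0.413). Ciart was at 2.12, 5.42 and 9.45 CPM in fed wild-type mice and fell by 1.31 (SE 0.45, adjusted p = 0.0233). That call was lost without fasted mouse WT_807, WT_824 or WT_825 or fed mouse WT_847 or WT_856, with an adjusted p of up to 0.0692. In fed WT/Y657* mice Ciart was already at 0.628, 1.81 and 4.098 CPM, and the fasting difference there was 0.05 (SE 0.48, adjusted p = 0.948). The genotype difference of the Ciart response was 1.36 (SE 0.65, adjusted p = 0.248). Ciart was the only member with an unadjusted p under 0.05 (19.1% of all genes had one), no tool run called any member for it, and 4.35% of all genes were called. Usp2 differed by -0.76 in wild-type (SE 0.34, adjusted p = 0.0934), and the WT/Y657* difference was 0.24 (SE 0.35, adjusted p = 0.65). Tef, Hlf, Rora and Bhlhe41 were not called in either genotype, with log2 differences between -0.88 (Bhlhe41 in WT/Y657* mice, SE 0.58) and 0.04 (Hlf in wild-type mice, SE 0.19).

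Refed against fed mice gave calls for 3 of 9 members in wild-type mice (2 higher, 1 lower, beside 27.5% of all genes, 13.2% higher and 14.3% lower) and for 4 of 9 in WT/Y657* mice (3 higher, 1 lower, beside 26.1%, 13% higher and 13.1% lower). Ciart and Usp2 were above the fed level and Rora below it in both genotypes. Hepatocyte markers were lower for 4 of 8 in wild-type mice and 1 of 8 in those with WT/Y657*, at most 2 markers of any other cell type were called, and their part was not tested. Ciart exceeded every fed mouse in both, with a log2 change of 1.18 (SE 0.40, adjusted p = 0.0261) for wild-type mice and 2.28 for WT/Y657* mice (SE 0.43, adjusted p = 0.000178). The wild-type call was lost without fed mouse WT_848, WT_850 or WT_860 or refed mouse WT_901, with an adjusted p of up to 0.0662. Usp2 was at 6.85, 12.02 and 19.2 CPM in fed wild-type mice, below all refed ones, and was higher by 1.09 (SE 0.32, adjusted p = 0.0115). The WT/Y657* difference was 1.47 (SE 0.34, adjusted p = 0.00144). Rora was at 116, 127 and 166 CPM in fed wild-type mice and lower by a log2 difference of -0.41 in refed ones (SE 0.11, adjusted p = 0.0034). The same difference in WT/Y657* mice was -0.42 (SE 0.10, adjusted p = 0.00289). The remaining WT/Y657* call was Hlf (0.52, SE 0.19, adjusted p = 0.0385), which was lost without any of 6 mice (adjusted p up to 0.135). Dbp in the refed state was also above every fed mouse of its genotype, but with log2 differences of 0.67 (SE 0.47, adjusted p = 0.305) and 0.97 (SE 0.47, adjusted p = 0.131) it was not called.

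The fasted groups were spread much more widely than the others for some members, and the spread followed the series of mouse numbers. Fasted mice WT_807, WT_824 and WT_825 of the lower series had Dbp at 3.72, 6.23 and 13.1 CPM, and mice WT_918, WT_919 and WT_920 of the higher series had it at 42.0, 42.5 and 32.98 CPM. Fasted mice MT_806, MT_826 and MT_827 were at 0.907, 9.88 and 1.19 CPM, and mice MT_921, MT_922 and MT_923 at 18.4, 9.32 and 22.98 CPM. Every higher-series wild-type mouse was thus above every lower-series one, and among WT/Y657* mice only MT_826 and MT_922 overlapped across series. Refed mice of both series lay together, at 44.2 to 65.2 CPM.

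In a fit with a coefficient per group and series, Dbp was 5.03-fold higher in the higher series among fasted mice (log2 2.33, SE 0.37, adjusted p = 0.00447, n = 6 against 6 mice). Tef was 1.90-fold higher (log2 0.92, SE 0.18, adjusted p = 0.0208), with fasted wild-type mice at 76.8, 99.7 and 122 CPM in the lower and 175, 198 and 163 in the higher series. Bhlhe41 was 5.22-fold higher (log2 2.38, SE 0.48, adjusted p = 0.0201), with wild-type values of 0.491, 1.002 and 0.931 CPM against 5.45, 4.77 and 2.31. These 3 of 9 members, all higher in the higher series, stand beside 0.179% of all genes called (25 of 13945), or 0.136% called higher. Ciart (log2 1.73, SE 0.42, adjusted p = 0.1), Usp2 (0.83, adjusted p = 0.449) and Bhlhe40 (0.71, SE 0.28, adjusted p = 0.445) were not called, and neither was Nfil3, at -0.54 (SE 0.18, adjusted p = 0.319). Hlf and Rora differed by 0.30 and -0.05. The Dbp call held without each of the 12 fasted mice in turn (adjusted p up to 0.0329), and without MT_826 its log2 difference was 3.20. That of Tef was lost without any of 7 of them (adjusted p up to 0.104), and that of Bhlhe41 without any of 8 (adjusted p up to 0.13). Without MT_826 the Bhlhe41 difference was 3.24.

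Among refed mice the series differed by 0.14 for Dbp, 0.18 for Tef, 0.34 for Bhlhe41 and 0.18 for Ciart on the log2 scale, and no member was called (adjusted p of at least 0.947, none with an unadjusted p under 0.05, and 0 by edgeR's likelihood ratio test and DESeq2), where 0.136% of all genes were. With fasted and refed mice in 1 test no member was called (0.00717% of all genes), although 6 had an unadjusted p under 0.05 (8.49% of all genes had one) and Dbp stood at 1.24 (adjusted p = 0.0996). There the likelihood ratio test called 3 members and DESeq2 called 2. The difference of the series effect between refed and fasted mice was -2.19 for Dbp (SE 0.49, adjusted p = 0.206). It was called for no member (0.0143% of all genes) by edgeR's quasi-likelihood or likelihood ratio test, with 5 members at an unadjusted p under 0.05 (7.01% of all genes), and DESeq2 called Dbp alone (adjusted p = 0.0416). That the series effect differed between the states is thus not shown by the main test. No marker of hepatocytes, Kupffer, endothelial, stellate, bile duct cells or lymphocytes was called between the fasted series. Why the series differ was not tested, and neither a harvest hour nor a harvest day is given for them.

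**Figure D3:**
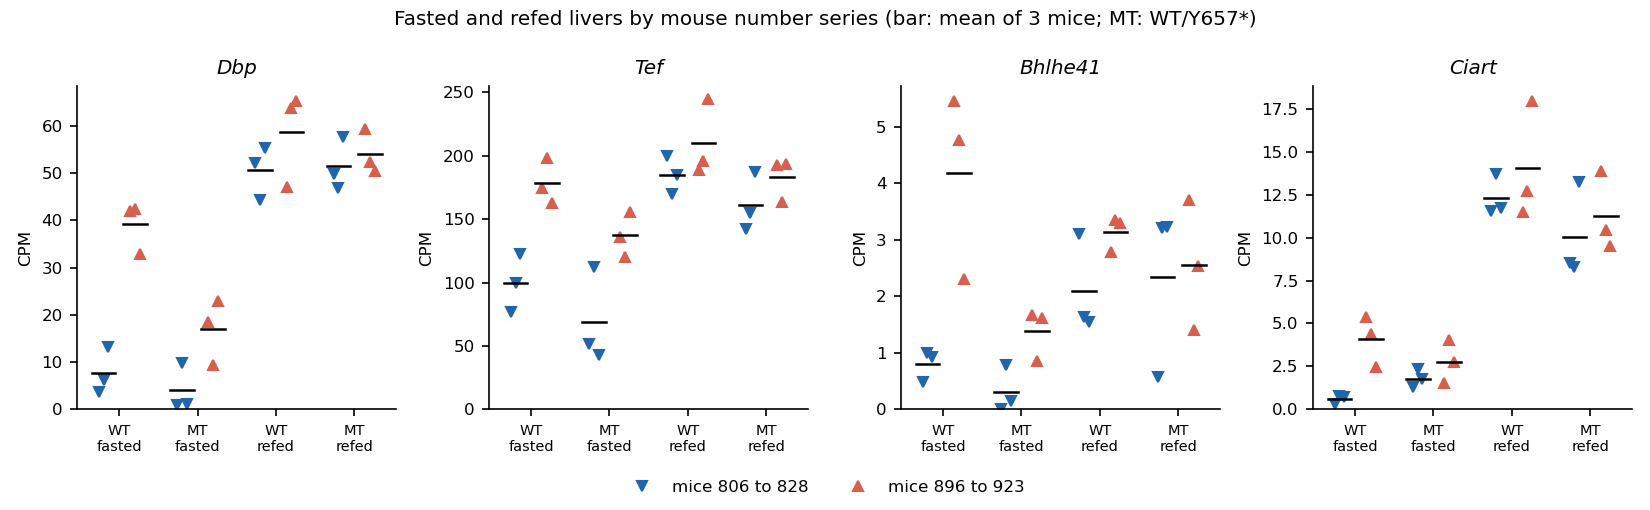
CPM of Dbp, Tef, Bhlhe41 and Ciart in the 12 fasted and 12 refed mice, by number series and genotype, with a bar at each mean of 3 mice. Dbp in fasted wild-type mice lay at 3.72 to 13.1 CPM in the lower and 32.98 to 42.5 CPM in the higher series, while in refed mice of both series it lay at 44.2 to 65.2 CPM.

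The fasting response was therefore also computed with the fasted mice of each series alone, as an alternative chosen after seeing the data, with the same fed mice as the reference in both. With lower-series wild-type mice 7 of 9 members were called, Nfil3 higher and Dbp, Tef, Bhlhe40, Bhlhe41, Ciart and Usp2 lower, beside 22.9% of all genes. With higher-series wild-type mice only Nfil3 was called, beside 24.2% of all genes. A like share of all genes was called with either series, while the members' count went from 7 to 1. The series difference was seen in these same fasted mice, so the drop restates it and adds no support. Ciart, Usp2 and Bhlhe40, called with the lower series only, were not called between the fasted series. Ciart fell by 3.32 on the log2 scale in the lower series (adjusted p = 6.42e-05) and differed by -0.52 in the higher (adjusted p = 0.4). Dbp fell by 2.22 in the lower (adjusted p = 0.000817) and differed by 0.19 in the higher (adjusted p = 0.774). Nfil3 rose in both, by 0.95 (adjusted p = 0.00136) and 0.65 (adjusted p = 0.0264).

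Among WT/Y657* mice the lower series gave 5 calls (Nfil3 higher, Dbp, Tef, Bhlhe40 and Bhlhe41 lower, beside 25.6% of all genes). The higher series gave only Bhlhe40 (-1.80, adjusted p = 0.000611, beside 23.2%). Dbp fell by 2.92 in the lower series (adjusted p = 0.000107) and differed by -0.67 in the higher (adjusted p = 0.257). For refeeding in wild-type mice, 6 members were called in the lower series (18.2% of all genes) and 2, Ciart and Usp2, in the higher (13.8%). For WT/Y657* mice 7 were called in the lower (21% of all genes) and 3, Dbp, Bhlhe40 and Ciart, in the higher series (14%). Ciart on refeeding was thus called in both series of both genotypes. In the higher series the fasted and refed mice also come from separate runs of mouse numbers.

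**Figure D4:**
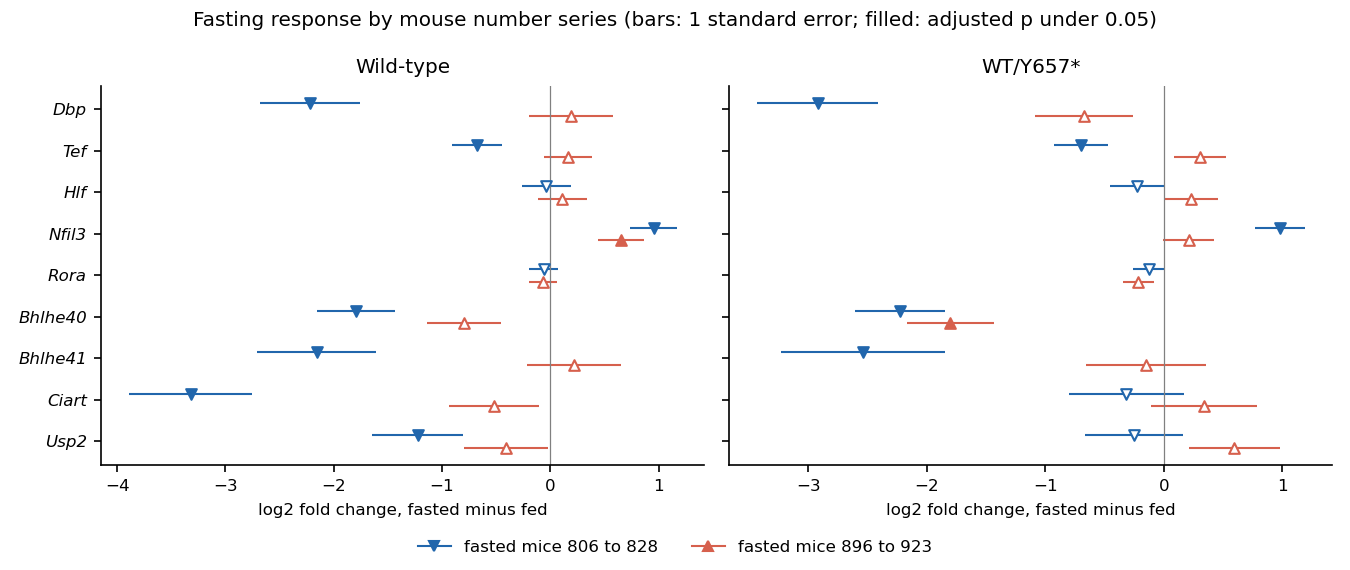
Log2 fold change from fed to fasted mice for each member, with the fasted mice of the lower or of the higher series, by genotype, with bars of 1 SE and filled symbols for calls. In wild-type mice Dbp stood at -2.22 and 0.19, Ciart at -3.32 and -0.52, and Nfil3 at 0.95 and 0.65.

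Between genotypes, Bhlhe40 in the fasted state was the only call among the members. Fasted wild-type mice had Bhlhe40 at 40.0, 63.4 and 126 CPM, and WT/Y657* mice at 18.3, 30.9 and 41.7 (lowest, median and highest). In 5 of 6 WT/Y657* mice it was below all wild-type mice, and it was 2.29-fold lower (log2 -1.19, SE 0.30, adjusted p = 0.00736), 1 of 9 members beside 13.1% of all genes (6.63% lower). Of the cell type markers, 1 of 5 endothelial and 1 of 5 stellate markers were higher there, and their part was not tested. The call held without each of the 12 mice in turn (adjusted p up to 0.0341). With 3 mice per genotype in a series it kept its direction but was not called, at -0.84 in the lower (adjusted p = 0.216, beside 7.3% of all genes) and -1.41 in the higher series (adjusted p = 0.0908, beside 0.523%). Bhlhe41 stood at -1.58 (SE 0.56, adjusted p = 0.0591), and was called by the likelihood ratio test and by DESeq2 (adjusted p = 0.037 in each). Dbp stood at -1.17 (SE 0.51, adjusted p = 0.127), with -1.05 in the lower (adjusted p = 0.309) and -1.21 in the higher series (adjusted p = 0.232). Hlf was at 29.3, 33.4 and 36.9 CPM in wild-type and 16.2, 26.2 and 30.9 in WT/Y657* mice, with 5 of 6 below all wild-type mice (adjusted p = 0.128). Ciart did not keep a direction: it was higher in WT/Y657* mice in the lower series, by 1.44 between means of log2 CPM, and near equal over all 12 mice (-0.05, adjusted p = 0.961).

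In the fed state no member was called between genotypes by edgeR's quasi-likelihood or likelihood ratio test, beside 2.37% of all genes. The unadjusted p was under 0.05 for 5 members (Tef, Hlf, Bhlhe41, Ciart and Usp2), all lower in WT/Y657* mice, where 17.4% of all genes had such a p. Ciart differed by -1.41 (SE 0.44, adjusted p = 0.0747), and DESeq2 called it (adjusted p = 0.0483). Bhlhe41 was at 2.62, 3.12 and 5.80 CPM in wild-type and 0.488, 1.65 and 2.33 in WT/Y657* mice. These did not overlap, at a log2 difference of -1.22 (SE 0.50, adjusted p = 0.19). In the fed groups genotype nearly follows mouse number, and Hlf varied with it: mice MT_857 to MT_859 were at 30.8, 32.9 and 27.7 CPM, near the wild-type range of 28.3 to 34.7, while mice MT_866, MT_868 and MT_869 were at 14.5, 19.6 and 18.3 CPM. The summed Kupffer cell markers were also more spread in fed WT/Y657* mice (153.6 to 545.5 CPM, 4 markers, none at 0) than in fed wild-type mice (162.7 to 229.7 CPM), and the stellate cell markers were at 355.3 to 493.5 against 259.5 to 371.7 CPM (5 markers, none at 0, 1 called higher). Lymphocyte markers summed to 12.7 to 44.4 against 10.1 to 17.8 CPM (5 markers, none at 0), with a median log2 difference of 1.48 over the 4 tested and 1 called higher. No Kupffer cell marker was called. Their part in these differences was not tested.

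In refed mice the members lay together in the 2 genotypes, with log2 differences between -0.45 (Usp2) and 0.04 (Rora) and none called, beside 0.0287% of all genes. No member had an unadjusted p under 0.05, and the likelihood ratio test and DESeq2 called 0. Dbp was at 54.7 ± 8.59 CPM (SD, n = 6) in refed wild-type and 52.8 ± 4.80 in refed WT/Y657* mice. Tef was at 197 ± 25.6 and 172 ± 21.8 CPM.

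After the mean of its group was taken from each mouse, the members other than Nfil3 and Rora tended to vary together from mouse to mouse. The SD of log2 CPM within groups was 1.04 for Dbp, larger than that of 99.1% of the genes tested, and it was at the 98.9th percentile for Bhlhe41 and the 98.0th for Ciart. It was 0.19 for Rora, below the median gene at 0.24. Over the 36 mice the deviations of Dbp and Tef had Pearson's r = 0.95 and Spearman's rho = 0.92, and r = 0.93 without the 2 mice farthest from the median. Within the 12 fed, 12 fasted and 12 refed mice r was 0.96, 0.98 and 0.70, and with the mean of each group and series removed it was 0.91, so the pair moved together within series too. Dbp and Bhlhe41 had r = 0.84 (rho = 0.73), and 0.66 within group and series. Dbp and the repressor Nfil3 had r = -0.64 (rho = -0.43), which was -0.85 in fasted but -0.24 in fed and -0.01 in refed mice. Of all 36 pairs of members 23 had a positive r, and 7 of the 8 pairs with Nfil3 had a negative one. Over the 36 mice Rora had r between -0.25 (Usp2) and 0.05 (Nfil3) with the other members. For some pairs this pooled value hides opposite signs by state, each over 12 mice. Rora and Hlf had r = 0.695 among fed but -0.53 among refed mice. The pair with Bhlhe40 went from 0.40 to -0.50 between these states. For Nfil3 it stood at 0.62 among fasted but -0.47 among fed mice. With Dbp, Tef, Ciart and Usp2 the r of Rora was negative in every state. These are descriptions with no test, and the mice of a series share whatever set the series apart.

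**Figure D5:**
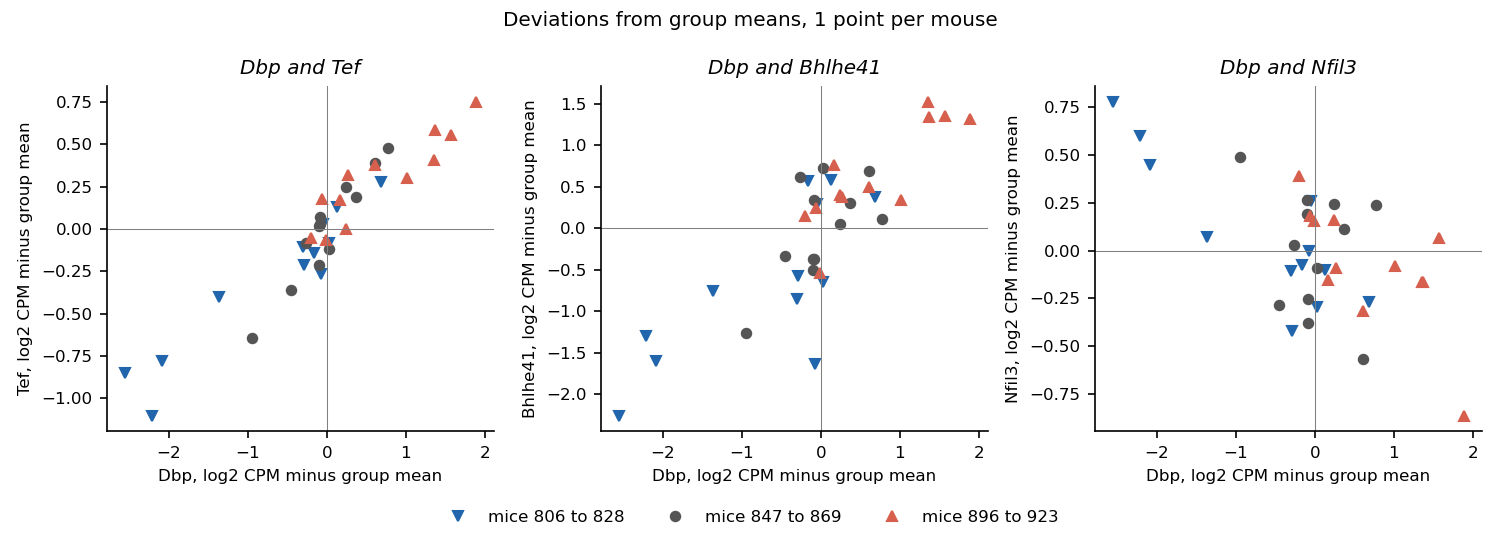
Deviation of log2 CPM from the mean of the mouse's group, for Dbp on the horizontal axis against Tef, Bhlhe41 and Nfil3 on the vertical axes, each point being 1 of 36 mice marked by its number series. Dbp and Tef lie along a line (r = 0.95), and Nfil3 tends to be low where Dbp is high (r = -0.64).

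The genes whose deviations were most like those of each member, by Pearson's r over 36 mice among genes with a mean of at least 1 CPM, were largely clock genes for some members and not for others. For Dbp they were Tef (0.95), Per3 (0.93) and Nr1d2 (0.86), and for Tef they were Per3 (0.96), Dbp (0.95) and Per2 (0.89). Bhlhe41 was nearest to Tef (0.84), Dbp (0.84) and Per3 (0.83), and Ciart to Per2 (0.78), Per3 (0.76) and Fam47e (0.72). Usp2 was nearest to Coq10b (0.80), Scarb2 (0.78) and Per1 (0.76). Bhlhe40 was nearest to Klf10 (0.81), Mid1ip1 (0.74) and Myo5b (0.73), none of them a clock gene of the list used here. Hlf was nearest to Sdr9c7 (0.91), Epb4.1l4b (0.88) and Cyp4v3 (0.86). Its own r with its fellow PAR bZIP factors was 0.55 for Tef and 0.45 for Dbp over 36 mice, and 0.89 and 0.87 in the 12 fasted mice. It was 0.37 and 0.26 in fed mice and 0.52 and 0.09 in refed mice. With the mean of each group and series removed it was 0.48 and 0.38. Nfil3 was nearest to Dpp9 (0.70), Lpl (0.66) and Hes1 (0.65), and Rora to Klf9 (0.67), Tjp1 (0.63) and Plec (0.63). By level of log2 CPM, with the group differences kept, Nfil3 was nearest to the starvation-induced kinase gene Pdk4 (0.83), followed by Map4k4 (0.80). Genes near Bhlhe40 were Mmp15 (0.90) and Eef2k (0.89), and Ciart was nearest to Per2 (0.90), Nmrk1 (0.86) and Rabggta (0.86). By the same measure Dbp was nearest to Per3 (0.95), Tef (0.91) and Wee1 (0.87), Tef to Per3 (0.92), Dbp (0.91) and Bhlhe41 (0.85), and Bhlhe41 to Pdxk (0.85), Tef (0.85) and Dbp (0.83). Hlf was nearest to Epb4.1l4b (0.89), Npr2 (0.87) and Sdr9c7 (0.86), Rora to Tecpr2 (0.82), Syne1 (0.80) and Tnks (0.79), and Usp2 to Ciart (0.86), Coq10b (0.86) and Cacybp (0.84).

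The core clock genes upstream of the members, 20 genes of which 19 were tested, were called in part. On refeeding 4 were higher and 4 lower in wild-type mice, against 5 and 5 among WT/Y657* mice, or 8 and 10 of 19 beside the 30.2% and 31.3% of all genes given above. On fasting 3 were higher and 1 lower in wild-type mice, against 2 and 4 among WT/Y657* mice, or 4 and 6 of 19 beside 32% and 32.9% of all genes. In refed against fed mice the counts were 3 and 3 for wild-type, and 5 and 5 for WT/Y657* mice, beside 27.5% and 26.1% of all genes. Between the fasted series 3 of 19 were higher in the higher series and none was lower, beside 0.179% of all genes (0.136% higher). They were the REV-ERB repressor gene Nr1d2 (log2 0.76, adjusted p = 0.00447), Per3 (1.82, adjusted p = 0.0091) and the repressor gene Cry2 (0.67, adjusted p = 0.03). Arntl, the gene of BMAL1, stood at -1.21 (adjusted p = 0.172). Between genotypes, Csnk1e, a kinase of PER proteins, was higher in fed WT/Y657* mice (0.53, SE 0.15, adjusted p = 0.0464). In fasted WT/Y657* mice 2 of 19 were lower, beside 13.1% of all genes, Cry2 among them (-0.63, SE 0.18, adjusted p = 0.0177), and in refed mice none of the 19 was called.

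Genes known to carry a D-box or to depend on the PAR bZIP factors formed a list of 14, all tested, of which 6 are also in the core clock list. On refeeding 6 were higher and 1 lower in wild-type mice, against 6 and 2 among WT/Y657* mice (30.2% and 31.3% of all genes), with median log2 differences of 0.32 and 0.25 against medians near 0 over all genes. On fasting 4 were higher and 1 lower in wild-type mice, against 6 and 4 among WT/Y657* mice, beside 32% and 32.9% of all genes, so the wild-type share is near the background. In refed against fed mice 6 were higher and 0 lower in wild-type mice, against 8 and 1 among WT/Y657* mice, beside 27.5% and 26.1% of all genes. Between the fasted series 2 were higher, Nr1d2 and Per3, beside 0.179% of all genes (0.136% higher). Both were already counted in the core clock list. Between genotypes 2 of 14 were called in fasted mice, both lower in WT/Y657* mice, beside 13.1% of all genes (6.63% lower). The share called in either direction is thus close to the background of 13.1%, and the share called lower is above 6.63% but rests on 2 genes. Among them was the lipid-sensing receptor gene Ppara (log2 -0.55, SE 0.10, adjusted p = 0.000328). Cyp2a4 was higher in fed WT/Y657* mice (6.85, SE 1.5, adjusted p = 0.0148), but it is nearly identical to Cyp2a5 and the split of reads between them is uncertain. In refed mice none of the 14 was called between genotypes.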

How the data were processed

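Liver RNA of 36 mice was extracted with RNeasy columns, made into TruSeq Stranded total RNA libraries and sequenced with short single reads. The authors deposited estimated counts (expected counts per gene and mouse, not normalized), of which 3.64% of those above 0 were not whole, and a table of means fitted per condition, which holds no spread between mice and was not used here. The submitters' processing notes name Cuffdiff, featureCounts, SAMtools, edgeR and the build mm9, while gene positions in the file lie at GRCm38 coordinates, which were taken here from GENCODE M21 (36341 identifiers matched). The labels speak of counting on human genes, and identifiers were used as given.

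Counts were rounded and fitted in R 4.3.3 with edgeR 4.0.16 (filterByExpr over the 6 groups, TMM, robust glmQLFit, 1 coefficient per group), with all mice in the model. Two-sided glmQLFTest p-values were adjusted by Benjamini-Hochberg over 13945 genes, with calls under 0.05. Series were tested in a fit with 1 coefficient per group and series. Log2 CPM used a prior count of 2. The smallest chi-square per degree of freedom between mice of a group was 8.28 (90 pairs, 10186 genes), so no library was counted as a repeat. Nothing in the labels pairs mice of different groups. The fit was tested on simulated counts.

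The members and lists were chosen with earlier results of these data known. Named are all members, the 3 genes most like each, and up to 3 called genes with the smallest p per list and genotype comparison; a few genes under this rule are not reported here. The list genes named for the fasted series, and Arntl, were added after their values were seen. Alternatives were the likelihood ratio test, DESeq2 1.42.0, other scalings, no filter, only the compared groups, a series covariate, leaving out each mouse, and, added after seeing the data, each series alone.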

Additional observations from a re-analysis of the deposited data

Results flagged for a closer look

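In 54 sets of 6 mice, 1 for each member and group, 4 had a mouse apart from the others by Dixon's test at the critical value for 6, and chance gives about 1 in 20. Nfil3 in fasted mouse WT_807 was at 39.6 CPM against 30.6 in the nearest and 25.9 in the lowest mouse. Rora in fed mouse WT_850 was at 166 CPM against 129 and 116. In refed mouse WT_901 both Rora, at 115 CPM against 99.3 and 90.4, and Ciart, at 17.9 CPM against 13.7 and 11.5, were apart. All 4 were the highest of their group, and each lies in a wild-type group.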

How the results depend on the processing

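Of 135 results of single members, 30 were called, 13 of these under all alternatives run and 19 without each mouse in turn, and no called value changed sign. No paired analysis was possible because no mouse number is shared between groups. Numbers of members called moved as follows. Genotype in fed mice went from 0 to 1 by DESeq2 (Ciart). Genotype in fasted mice went from 1 to 2 by the likelihood ratio test, DESeq2 and the series covariate (Bhlhe41 added), to 0 in either series alone, and to 1 to 2 without single mice (2 without WT_807, WT_824, WT_825, MT_921 or MT_923). Fasting in wild-type mice went from 3 to 7 in the lower and 1 in the higher series. Fasting in WT/Y657* mice went from 3 to 1 with only the compared groups, 5 in the lower and 1 in the higher series, and 1 to 3 without single mice (1 without MT_806). Refeeding went from 5 to 2 in the higher series of wild-type mice, and for WT/Y657* mice from 8 to 5 with only the compared groups, 3 in the higher series and 5 to 9 without single mice (5 without MT_806). Refed against fed wild-type mice went from 3 to 5 with only the compared groups (Dbp and Tef added). Series over both states went from 0 to 3 by the likelihood ratio test, 2 by DESeq2 and 0 to 3 without single mice (3 without MT_826, 1 without MT_922 or WT_825). Series in fasted mice went from 3 to between 1 and 3 without single mice (1 without WT_807, WT_824, WT_919, MT_806, MT_827, MT_921 or MT_923). The difference of series effects went from 0 to 1 by DESeq2 and 0 to 2 without single mice (2 without MT_826). The cause was not tested, and each series alone also holds fewer mice.

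Values not called that changed sign, in log2, were as follows. In genotype, fasted, Ciart was 0.0010 by library size, 0.050 with the series covariate and 1.59 in the lower series, and Nfil3 was -0.060 in the higher. In genotype, refed, Dbp was 0.016 by library size and 0.027 in the lower series, where Rora was -0.018 and Bhlhe41 0.13. For fasting in wild-type mice Hlf was -0.038 in the lower series, and Dbp 0.19, Tef 0.16 and Bhlhe41 0.22 in the higher. Among WT/Y657* mice Hlf was -0.025 by library size and -0.22 in the lower series, where Ciart was -0.32 and Usp2 -0.25, and Tef was 0.31 in the higher. Bhlhe41 was -0.41 on refeeding in the higher series of wild-type mice, and Nfil3 -0.036 in refed against fed wild-type mice of the lower. For the genotype difference in refeeding Rora was -0.0072 in the lower and Ciart 0.24 in the higher series. For the difference of series effects Hlf was 0.0020 by library size.

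Without single mice, Rora ranged from -0.020 to 0.13 in genotype, fed, and Ciart from -0.30 to 0.35 in genotype, fasted. In genotype, refed, Hlf ranged from -0.21 to 0.038, Rora from -0.051 to 0.12, Dbp from -0.10 to 0.0081 and Bhlhe41 from -0.28 to 0.084. On fasting Rora ranged from -0.097 to 0.014 in wild-type mice, and among WT/Y657* mice Hlf from -0.087 to 0.13, Ciart from -0.19 to 0.34 and Tef from -0.27 to 0.050. Bhlhe41 on refeeding in wild-type mice ranged from -0.14 to 0.46. For the genotype difference in fasting Tef ranged from -0.070 to 0.25, Hlf from -0.13 to 0.091 and Bhlhe41 from -0.68 to 0.013. Rora in the fasted series ranged from -0.091 to 0.0002, Bhlhe40 in the refed series from -0.088 to 0.18, and Hlf in the difference of series effects from -0.16 to 0.12. Depth limits Bhlhe41 most, with at most 68 counts in a library.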
